A study of Homo sapiens with 6 samples.

Results

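NF-kappaB is a small family of transcription factors, and the measurements below describe the messenger RNAs of its 5 subunits and of 5 of its feedback inhibitors in oral squamous cell carcinoma (OSCC) cells with and without the long noncoding RNA DLEU1. The members were every probe whose gene name in the array files is RELA, NFKB1, REL, RELB, NFKB2, NFKBIA, NFKBIE, NFKBIZ, BCL3 or TNFAIP3, which gave 11 probes for 10 genes, of 50599 probes on the array. The rule uses gene names and no measured value, although the genes themselves were picked with earlier results of these data known. All 11 probes passed the filter on dim signal that left 19956 probes for testing.

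Gene expression was measured in HSC-3, KON and Ca9-22, which are established OSCC cell lines. Each line was transfected either with siDLEU1-2, a small interfering RNA (siRNA) against DLEU1, or with control siRNA (siCtrl), and total RNA was taken 72 h later. One array per line and siRNA was hybridized with RNA labeled with Cy3 from 100 ng, 6 arrays in all, so replication is over the 3 lines, and no error can be given inside any of them. The p-values of the siRNA therefore set the mean change against its variation between lines, an error moderated by the variation of all probes kept. Only siDLEU1-2 was put on arrays, so loss of DLEU1 and any effect of this siRNA on other transcripts cannot be told apart. RNA came from whole cultures, in which fewer cells of a kind and less RNA per cell cannot be told apart.

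The antisense strand of siDLEU1-2 is shown because all 3 siDLEU1-2 arrays rest on this single siRNA. Capitals mark positions 2 to 8 from its 5′ end, the seed with which an siRNA can pair to transcripts other than its target.

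siDLEU1-2 antisense: uUAAGUGCgauaaccccugua

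Its complement GCACTTA occurs in 0 of the 11 member probes, in 0 of 162 probes of the other pathway genes, and in 57 of the 19956 probes kept. A probe covers 60 bases, so the rest of each transcript was not searched.

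Array values are given as levels, which are the log2 processed signal of a probe minus the 75th percentile of all probes on the same array. A level of 0 thus lies at that percentile, where the signal was between 200 and 257, and 1 unit is a 2-fold step. Levels were compared only within a probe. On each array between 43.0% and 45.7% of probes were well above background. The targeted gene was checked first. At its probe (chr13:50679272-50679331, hg19) the processed signal of DLEU1 was 571 (HSC-3), 1145.5 (KON) and 741 (Ca9-22) in control cells, compared with 30.7, 87.8 and 66.0 in knockdown cells. Its mean log2 fold change was -3.72 ± 0.34 (SD, n = 3 lines; limma, adjusted p = 0.0227), and every siDLEU1-2 array lay below every siCtrl array. All 10 squamous epithelial markers had a probe above background on at least 5 arrays. Of the markers of other cell types, PTPRC and CD3E (leukocytes) were above background on at most 2 arrays, PECAM1 (endothelium) on at most 1, and COL1A2, PDGFRB and THY1 (fibroblasts) on 0. By contrast, CD14 and COL1A1 were above background on all 6 arrays, and the endothelial markers CDH5 and VWF, the latter at 1 of its 3 probes, on 5. Some markers also changed. Of 13 squamous probes 1 was called higher, CDH1 at 2.92, and 4 lower, TP63 at -2.46, DSG3 at -2.12, KRT6A at -1.33 and SFN at -0.81, and of the 4 probes of other cell types that were tested, COL1A1 was called higher at 1.45 (mean log2 fold changes, limma). TP63 was not well above background on the Ca9-22 siDLEU1-2 array and was kept in that line through its siCtrl array. Its call thus adds nothing and its mean includes an unmeasured value. On both arrays of HSC-3 and KON it was above background, with log2 fold changes of -2.37 and -2.35. The part of these markers in the results below was not tested.

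NF-kappaB acts as a dimer of these subunits. RELA, REL and RELB carry an activation domain, whereas NFKB1 and NFKB2 are made as long precursors that are cut to DNA-binding subunits without one. In resting cells IkappaB proteins such as NFKBIA and NFKBIE hold the dimers in the cytoplasm, and signals from TNF, interleukin-1 or Toll-like receptors activate the IKK kinases, which mark IkappaB for degradation and free the dimer to enter the nucleus. Among the genes it then switches on are its own inhibitors and several of its subunits, so that the pathway both limits and sustains itself. In squamous epithelium the pathway is known for driving inflammatory cytokines, survival genes and proteases. The arrays measured RNA, not the cut, location or activity of the proteins.

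Because many of these genes are known targets of the factor they form or restrain, the 250 bases before each annotated start (RefSeq, GRCh38.p14) were searched on both strands for the NF-kappaB consensus decamer. Entries matched 8 of the 10 genes, all but RELB and NFKBIE. Of the 13 starts of the 8 genes, 8 (61.5%) held a match, against 1828 of 35116 starts (5.21%) in the whole table. Matches were held by 6 of the 8 genes (75%), compared with 6.28% of 27305 genes. These are descriptions of letters, with no test, and a match is not a binding site. A window of matches is printed for each of these 6 genes to show which members carry the letters their own factor is known to bind, read along the strand of the gene, with matches in capitals. Where capitals run past 10 bases, matches overlap or adjoin.

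NFKB1: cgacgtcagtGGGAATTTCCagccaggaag
NFKB2, middle start: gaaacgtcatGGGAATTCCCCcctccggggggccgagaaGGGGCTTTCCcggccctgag
NFKB2, last start: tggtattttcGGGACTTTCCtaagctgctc
REL: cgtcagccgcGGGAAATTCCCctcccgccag
NFKBIA: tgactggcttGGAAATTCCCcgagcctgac
NFKBIZ: tttttggtctGGGAATTTCCagtgtgcaga
TNFAIP3: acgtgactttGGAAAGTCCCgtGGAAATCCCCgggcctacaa

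In GRCh38.p14 the window of NFKB1 lies at chr4:102501300-102501329 on the plus strand, with its match beginning 49 bases before the start, and that of REL at chr2:60881517-60881547 on the plus strand, 47 bases before the start. The NFKB2 windows, on the plus strand, lie at chr10:102394461-102394519 and chr10:102395674-102395703, and the printed match of the last start begins 21 bases before it. The NFKBIA window is chr14:35404811-35404840 on the minus strand, with its match 81 bases before the start. The NFKBIZ window is chr3:101827757-101827786, and the TNFAIP3 window, with 2 matches between 67 and 46 bases before the start, is chr6:137867182-137867223, both on the plus strand. No match lay in these windows of RELA, at 2 starts, or of BCL3, at 1 start.

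No member probe was called changed by limma across the 3 lines at an adjusted p of 0.05, whereas 3.98% of all probes kept were called higher and 4.52% lower. Without adjustment, 3 member probes were lower and 1 was higher at a p of 0.05, against 14.9% and 14.6% of all probes. The 3 lower probes were both RELA probes and NFKB1, and the higher one was REL. At these 3 probes the 3 siDLEU1-2 arrays all lay below the 3 siCtrl arrays, as did 5.36% of all probes, and at REL they all lay above, as did 5.67%. Both RELA probes read the same transcript, so the 3 lower probes are 2 genes. A change over 2-fold in all 3 lines was seen at 0 member probes, beside 2.08% of all probes higher and 2.08% lower.

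**Figure D1:**
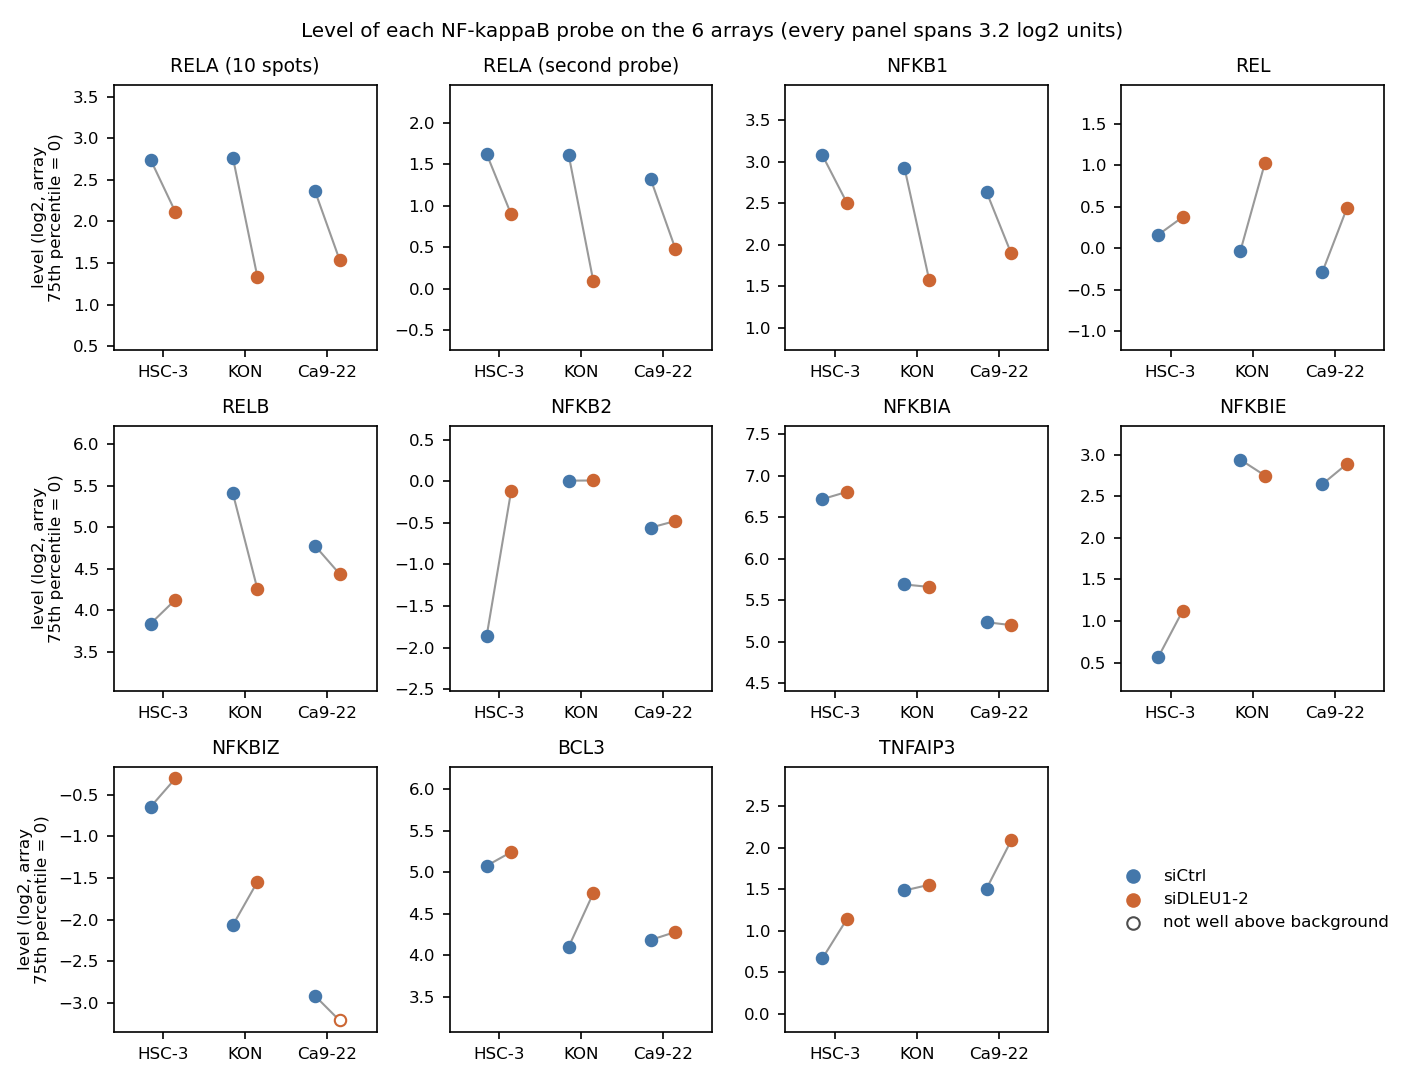
Level (log2 processed signal, with the 75th percentile of the array at 0) of each of the 11 member probes on the 6 arrays. Each point is 1 array, blue for siCtrl and orange for siDLEU1-2, a line joins both arrays of a cell line, an open point is not well above background, and the RELA, NFKB1 and REL panels are those in which the colors do not overlap.

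RELA, the main activating subunit of the classical pathway, had 2 probes on the array. At the probe with 10 spots (chr11:65421651-65421710, hg19, minus strand) the siCtrl level was 2.74 (HSC-3), 2.77 (KON) and 2.37 (Ca9-22), and the siDLEU1-2 level was 2.11, 1.33 and 1.54 in the same lines. The lowest siCtrl array was thus above the highest siDLEU1-2 array, and the 3 siCtrl levels lay closer to each other than any did to its partner. The log2 fold changes of these 3 lines were -0.63, -1.44 and -0.83, and their mean was -0.97 ± 0.43 (SD, n = 3; SE 0.21; limma, adjusted p = 0.0594).

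The second RELA probe (chr11:65421986-65422045) gave siCtrl levels of 1.62 (HSC-3), 1.61 (KON) and 1.32 (Ca9-22), followed by 0.90, 0.09 and 0.48 after knockdown. Again no siDLEU1-2 array reached a siCtrl array. Its mean log2 fold change was -1.03 ± 0.43 (SD, n = 3; limma, adjusted p = 0.0539). The order of the lines was the same at both probes, with the largest difference in KON, where the processed signal went from 1749.8 to 613 at the first probe and from 785 to 261 at the second.

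NFKB1, the precursor whose product is the usual partner of RELA, was measured at chr4:103537856-103537915 (hg19). Its siCtrl level was 3.08 (HSC-3), 2.92 (KON) and 2.63 (Ca9-22), and its siDLEU1-2 level was 2.50, 1.58 and 1.89. Here too all siDLEU1-2 arrays were below all siCtrl arrays, and KON differed most. The log2 fold changes of -0.58, -1.35 and -0.74 averaged -0.89 ± 0.41 (SD, n = 3; limma, adjusted p = 0.0661). The 95% interval of the mean ran from -1.41 to -0.36 for NFKB1, from -1.51 to -0.42 for the first RELA probe, and from -1.57 to -0.48 for the second, before any correction for the number of probes tested.

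The calls of RELA and NFKB1 turned on the settings. Under 3 settings both RELA probes and NFKB1 had limma adjusted p-values between 0.0356 and 0.0484, and so counted as changed. These were normexp background correction, only probes above background on all 6 arrays, and a variance prior that follows the level. Calls over all probes rose as well, from 1697 of 19956 to 2308 of 19956, 2065 of 18094 and 2446 of 19956 in that order. Over all alternatives the adjusted p ran from 0.0383 to 0.595 for the first RELA probe, from 0.0356 to 0.541 for the second, and from 0.0412 to 0.70 for NFKB1, the highest without the replicate block or by the methods' t-test, neither of which uses the pairing of arrays by cell line. The mean log2 fold change stayed between -1.18 and -0.66 at these 3 probes throughout.

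**Figure D2:**
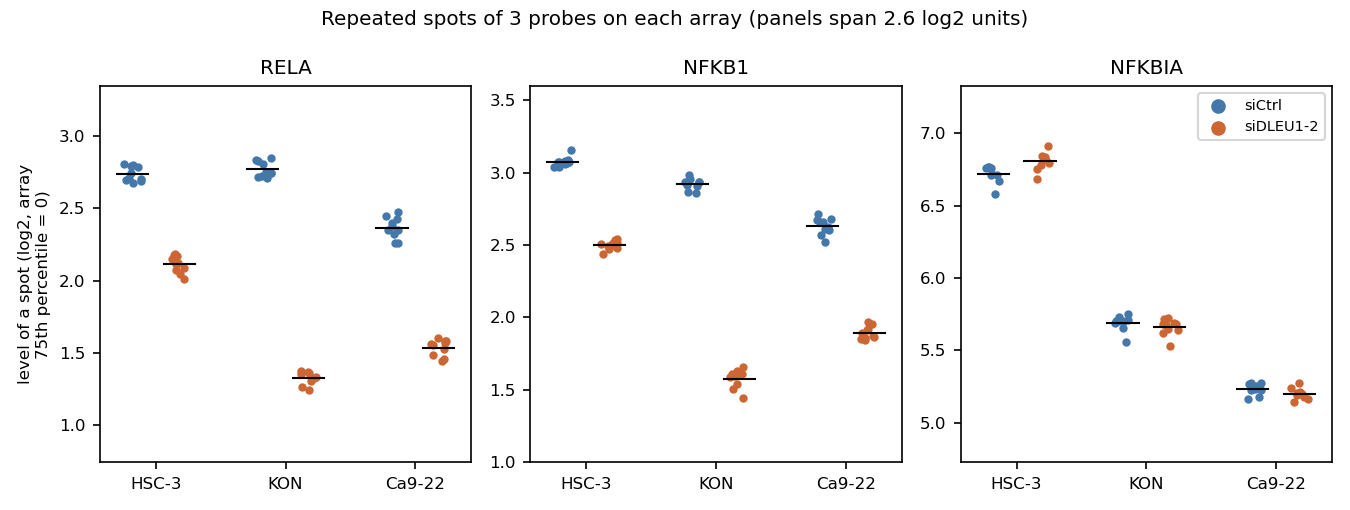
Level of the single spots of the 3 member probes that are printed 10 times on each array, by cell line and siRNA (blue siCtrl, orange siDLEU1-2; black bars are means over spots). The colors are apart in every line for RELA and NFKB1 and overlap in every line for NFKBIA.

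The first RELA probe, NFKB1 and NFKBIA are each printed as 10 spots, which shows the error within an array. The SD over spots lay between 0.04 and 0.07 on the log2 scale for RELA, between 0.03 and 0.06 for NFKB1, and between 0.04 and 0.06 for NFKBIA. In HSC-3, where RELA differed least, its spots lay between 2.67 and 2.80 after siCtrl and between 2.01 and 2.18 after siDLEU1-2. Spots of siCtrl and siDLEU1-2 did not overlap in any of the 3 lines for RELA or NFKB1 and overlapped in all 3 for NFKBIA. Spots share 1 RNA extract, so their spread leaves out transfection and labeling.

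REL, an activating subunit best known from lymphocytes, differed in the opposite direction to RELA and NFKB1. At chr2:61149596-61149655 (hg19) its siCtrl level was 0.16 (HSC-3), -0.04 (KON) and -0.28 (Ca9-22), and its siDLEU1-2 level was 0.38, 1.03 and 0.49. Although the 3 siDLEU1-2 arrays lay above the 3 siCtrl arrays, the step in HSC-3 was small. The mean log2 fold change was 0.68 ± 0.43 (SD, n = 3; 95% interval 0.14 to 1.23; limma, adjusted p = 0.113), made up of 0.22, 1.06 and 0.77. REL was not called under any alternative that was run.

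RELB, the activating subunit of the alternative pathway, gave no common direction. At chr19:45541385-45541444 (hg19) its siCtrl level was 3.84 (HSC-3), 5.41 (KON) and 4.78 (Ca9-22), and its siDLEU1-2 level was 4.13, 4.25 and 4.44. KON had the highest siCtrl level, while the 3 siDLEU1-2 arrays lay close together and between the siCtrl arrays. The log2 fold changes were 0.29, -1.16 and -0.34, with a mean of -0.40 ± 0.72 (SD, n = 3; limma, adjusted p = 0.434). Without KON the mean was -0.03, and without HSC-3 it was -0.75.

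NFKB2, the precursor cut in the alternative pathway, had its largest difference in HSC-3. The files place its probe at chr10:104161053-104161229 (hg19), a span of 177 bases for a probe of 60. Its siCtrl level was -1.87 (HSC-3), 0.01 (KON) and -0.56 (Ca9-22), and its siDLEU1-2 level was -0.11, 0.01 and -0.48. The HSC-3 siCtrl array alone stood low, at a processed signal of 59.7. The log2 fold changes of 1.76, 0.00 and 0.08 gave a mean of 0.61 ± 0.99 (SD, n = 3; limma, adjusted p = 0.367) that became 0.04 without HSC-3.

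**Figure D3:**
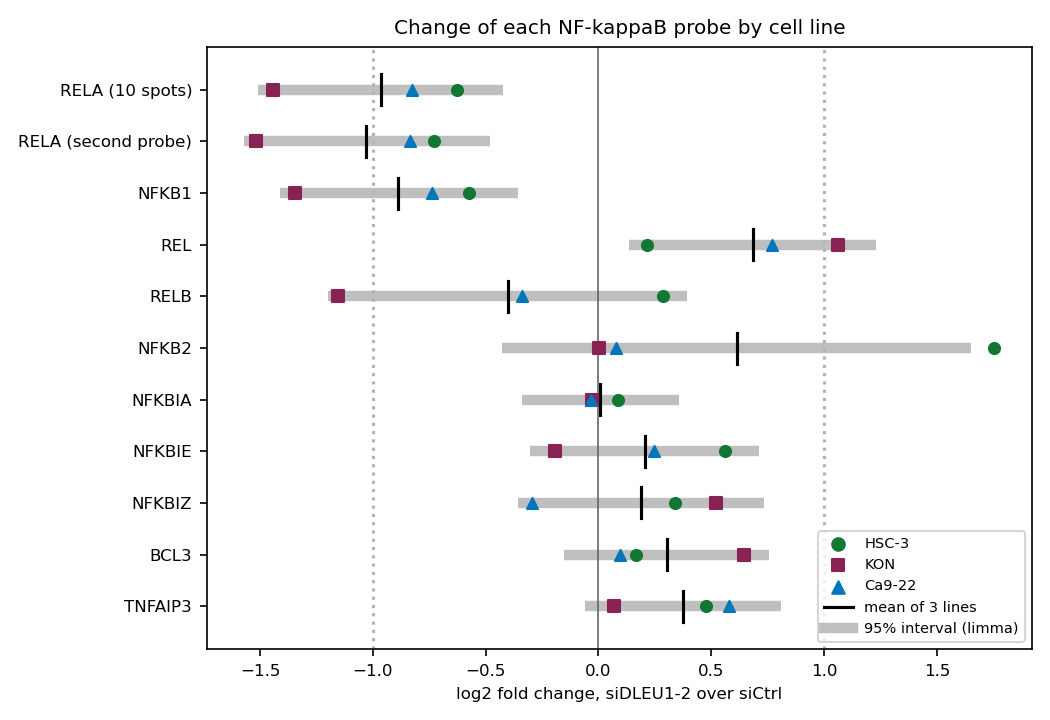
Log2 fold change of siDLEU1-2 over siCtrl for each member probe in HSC-3 (circle), KON (square) and Ca9-22 (triangle), with the mean over lines (black bar) and its limma 95% interval (gray, before correction for multiple tests); dotted lines mark 2-fold. The intervals of RELA, NFKB1 and REL leave out 0, the KON squares of 5 subunit probes lie past 2-fold, and the inhibitors lie between -0.30 and 0.65.

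Among the subunits, KON was the line in which most probes passed 2-fold. In KON 4 member probes were over 2-fold lower (both RELA probes, NFKB1 and RELB), against 7.29% of all probes, and 1 was over 2-fold higher (REL), against 7.3%. In HSC-3 0 were lower (6.68% of all probes) and 1 was higher, NFKB2 (7.53%), and in Ca9-22 0 were lower (6.46%) and 0 higher (6.56%). Over the whole array, the shares past 2-fold thus lay between 6.46% and 7.53% in each line and direction. Differences in response between lines were not tested, as each has 1 array per siRNA.

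Differences at the feedback inhibitors were smaller. NFKBIA is the IkappaB protein that the pathway makes anew after activation. At chr14:35870788-35870847 (hg19) its siCtrl level was 6.72 (HSC-3), 5.69 (KON) and 5.24 (Ca9-22), and its siDLEU1-2 level was 6.81, 5.66 and 5.20. The lines differed far more than the siRNAs did. The mean log2 fold change was 0.01 ± 0.07 (SD, n = 3; limma, adjusted p = 0.978), with a 95% interval from -0.34 to 0.36. Its sign turned under other scalings.

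NFKBIE, the IkappaB protein that preferentially holds RELA and REL dimers, had siCtrl levels at chr6:44226558-44226617 (hg19) of 0.56 (HSC-3), 2.94 (KON) and 2.65 (Ca9-22), against 1.13, 2.75 and 2.89 after knockdown. HSC-3 stood low on both arrays. Its log2 fold changes of 0.56, -0.19 and 0.24 averaged 0.21 ± 0.38 (SD, n = 3; limma, adjusted p = 0.530; 95% interval -0.30 to 0.71). Without HSC-3 the mean was 0.03, and without KON it was 0.40.

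NFKBIZ and BCL3, nuclear members of the IkappaB family, bind NF-kappaB dimers on DNA and can help or hinder them. At chr3:101578904-101578963 (hg19) NFKBIZ had siCtrl levels of -0.64 (HSC-3), -2.07 (KON) and -2.92 (Ca9-22), and siDLEU1-2 levels of -0.30, -1.54 and -3.21. The last of these, in Ca9-22, was not well above background, and the lines were ordered alike on both siRNAs. Its mean log2 fold change was 0.19 ± 0.43 (SD, n = 3; limma, adjusted p = 0.593), and it was 0.02 without KON, 0.11 without HSC-3 and 0.43 without Ca9-22. BCL3 at chr19:45263191-45263250 had siCtrl levels of 5.08 (HSC-3), 4.10 (KON) and 4.18 (Ca9-22), against 5.24, 4.75 and 4.28 after knockdown. Each BCL3 pair was higher after siDLEU1-2, with most of the mean of 0.30 ± 0.30 (SD, n = 3; limma, adjusted p = 0.315) from the 0.65 in KON, without which it was 0.13.

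TNFAIP3, a ubiquitin-editing enzyme that shuts off signaling upstream of the IKK kinases, was measured at chr6:138203679-138203738 (hg19). Its siCtrl level was 0.67 (HSC-3), 1.49 (KON) and 1.51 (Ca9-22), and its siDLEU1-2 level was 1.14, 1.55 and 2.09. Every pair was higher after knockdown, but the groups overlapped. KON, the line in which RELA differed most, had the smallest TNFAIP3 difference, 0.07, and the mean was 0.37 ± 0.27 (SD, n = 3; limma, adjusted p = 0.219; 95% interval -0.06 to 0.81). Over the members as a whole, 3 probes were lower in every line (26.7% of all probes), 4 were higher in every line (26.9%), namely REL, NFKB2, BCL3 and TNFAIP3 (NFKB2 by only 0.0024 in KON, which is below the 0.02 median of all probes there), and 4 changed direction between lines. The median log2 fold change was -0.64 over the 6 subunit probes, 0.21 over the 5 inhibitor probes, and 0.01 over all probes kept. With 1 value per gene, so that RELA counts once, the subunit median was -0.40. Over probes, the median absolute change was 0.78, 0.21 and 0.29 in the same order.

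Levels of the same genes were then compared between the cell lines in the same fit, with the siRNA as a term. Each line has 2 arrays, 1 per siRNA, so the error here is what siRNA and line leave over in these differently treated cultures, not a spread between like cultures of a line. Of 11 member probes, limma called 3 between HSC-3 and KON, 5 between HSC-3 and Ca9-22, and 1 between KON and Ca9-22, while 36.2%, 36.6% and 33.2% of all probes were called. Every member called was an inhibitor, and 0 of the 6 subunit probes differed between lines past the threshold. With 11 probes, the members' counts lie near or below these shares of all probes.

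NFKBIA was highest in HSC-3, by 1.09 on the log2 scale over KON (limma, adjusted p = 0.0126) and by 1.54 over Ca9-22 (adjusted p = 0.00691), whereas KON and Ca9-22 differed by 0.46 (adjusted p = 0.0926). NFKBIE ran the other way and was lower in HSC-3, with a difference of -2.0 from KON (limma, adjusted p = 0.00849) and of -1.92 from Ca9-22 (adjusted p = 0.00871), with KON and Ca9-22 within 0.08 of each other (adjusted p = 0.823). HSC-3 thus held the highest level of one cytoplasmic inhibitor and the lowest of another.

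NFKBIZ differed between all 3 lines, with HSC-3 above KON by 1.33 (limma, adjusted p = 0.0203) and KON above Ca9-22 by 1.26 (adjusted p = 0.0245), but the call between KON and Ca9-22 rests on a probe near background and was lost under 3 settings. BCL3 was higher in HSC-3 than in Ca9-22 by 0.93 (limma, adjusted p = 0.0307), and its 0.74 over KON had an adjusted p of 0.0529. TNFAIP3 was lower in HSC-3 than in Ca9-22, with a difference of -0.89 (limma, adjusted p = 0.0305), with KON between them and not past the threshold against either. Among the subunits the widest gap was that of NFKB2, -1.0 for HSC-3 against KON (limma, adjusted p = 0.167), which rests on the low HSC-3 siCtrl array.

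The rest of the pathway was described with 115 other genes, listed by role, of which 92 had a probe kept, 117 probes in all. Of these probes 6 rose and 4 fell by limma, beside 3.98% and 4.52% of all probes called in these directions. One of the 6, TNFSF14, was kept only through its siDLEU1-2 arrays, so its call adds nothing, and another, LTB, was kept in Ca9-22 only through that array. The 10 calls became 0 without HSC-3, without KON or without the replicate block. Their median log2 fold change was 0.08, and 33 were higher and 23 lower in every line, beside 26.9% and 26.7% of all probes.

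Of the 8 ligand probes, 2 were called higher and 2 lower, beside 3.98% and 4.52% of all probes, but the higher ones, TNFSF14 in all lines and LTB in Ca9-22, passed the filter on dim signal only through siDLEU1-2 arrays. IL1B and IL1A, the interleukin-1 cytokines that activate the pathway, fell together. The processed signal of IL1B was 26577 (HSC-3), 30698 (KON) and 5332 (Ca9-22) in control cells, and 2906, 2253 and 632 in knockdown cells. Averaged over lines, IL1B changed by -3.27 ± 0.37 (SD, n = 3; limma, adjusted p = 0.0227). IL1A changed by -2.75 ± 0.48 (SD, n = 3; limma, adjusted p = 0.0231). All siDLEU1-2 signals of IL1B lay below all siCtrl signals.

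LTB and TNFSF14 are TNF-family genes whose products bind the lymphotoxin beta receptor. LTB was above background on both arrays of HSC-3 and KON, where its log2 fold changes were 1.89 and 1.81. In Ca9-22 it was not well above background after siCtrl and was kept through its siDLEU1-2 array, so no mean and no p are given for it. TNFSF14 was well above background on the 3 siDLEU1-2 arrays and on 0 siCtrl arrays, so its mean over lines was at least 3.12-fold higher. No p is given for it, as a probe kept only through the arrays where it is bright had to differ. This bound sets its siDLEU1-2 mean against the lowest signals well above background on the siCtrl arrays. By line, its siDLEU1-2 level was -0.84 (HSC-3), -3.01 (KON) and -2.10 (Ca9-22). The lowest levels well above background on the siCtrl arrays were -3.58, -3.85 and -3.44, so the bound was smaller in KON and Ca9-22 than in HSC-3.

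Receptors and adaptors had 0 of 25 probes risen and 2 fallen, beside the same 3.98% and 4.52%. TLR3, the receptor for double-stranded RNA, changed by -2.43 ± 0.56 (SD, n = 3; limma, adjusted p = 0.0247). CARD10, a scaffold that links receptors to the IKK complex, changed by -1.01 ± 0.22 (limma, adjusted p = 0.035). Calls numbered 0 of 12 probes of the IKK complex and related kinases and 0 of 8 of the IkappaB degradation machinery. The linear ubiquitin assembly complex had 0 of 6. These counts are too small to set apart from the 3.98% and 4.52% of all probes, and the medians were 0.04, 0.11 and -0.06. Short of a call, the widest mean changes of the IKK probes were 1.01 at MAP3K14 and -1.12 at a TANK probe (limma, adjusted p = 0.062 and 0.0728). The other TANK probe changed by -0.31.

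Other inhibitors and negative regulators had 1 of 19 probes called higher and 0 lower, near the 3.98% and 4.52% of all probes. TAX1BP1, an adaptor of TNFAIP3, rose by 0.90 ± 0.25 (SD, n = 3; limma, adjusted p = 0.0453), and its processed signal of 8321 (HSC-3), 11500 (KON) and 6776 (Ca9-22) in control cells compared with 15607, 16714 and 13782 after knockdown. Its partner TNFAIP3 had no call, as above.

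Of the 39 probes of known target genes, 3 rose and 0 fell, beside 3.98% and 4.52% of all probes, and 4 were over 2-fold higher in all 3 lines and 0 lower, beside 2.08% and 2.08%. BCL2L1, a survival gene, rose by 1.27 ± 0.21, TNFAIP2 by 1.27 ± 0.53, and EBI3, a cytokine subunit, by 2.19 ± 0.72 (SD, n = 3; limma, adjusted p = 0.0266, 0.0484 and 0.0307). BIRC3, an inhibitor of apoptosis, and IL6, a cytokine, were over 2-fold higher in all 3 lines without passing limma, at 3.11 ± 1.57 (adjusted p = 0.051) and 3.51 ± 2.25 (limma, adjusted p = 0.0761). Their size differed widely between lines, as the IL6 log2 fold change was 6.09 (HSC-3), 2.53 (KON) and 1.91 (Ca9-22). A second IL6 probe was not above background enough to be kept. Among the targets, a CSF3 probe was well above background on no siDLEU1-2 array, with a mean level of -1.86 after siCtrl. In the other direction, a CXCL6 probe was well above background on no siCtrl array, with a mean of -3.71 after siDLEU1-2. No p is given for either.

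The median log2 fold change of the target probes was 0.66 (HSC-3), -0.20 (KON) and 0.19 (Ca9-22), while that of all probes kept was between -0.01 and 0.02 in each line. The subunit medians were -0.18, -1.25 and -0.54 in the same order of lines, with both RELA probes counted. With 1 value per gene the sign in HSC-3 turned, as the 5 subunit genes had medians of 0.22, -1.16 and -0.34, and the 31 target genes had 0.82, 0.00 and 0.37. HSC-3 had the highest and KON the lowest median of both lists either way. With 3 lines, this order is a description. IL1A, IL1B and TLR3 fell on the same arrays on which BIRC3, EBI3 and IL6 were higher. Of the 39 target probes, 13 were higher and 8 lower in every line, near the 26.9% and 26.7% of all probes.

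**Figure D4:**
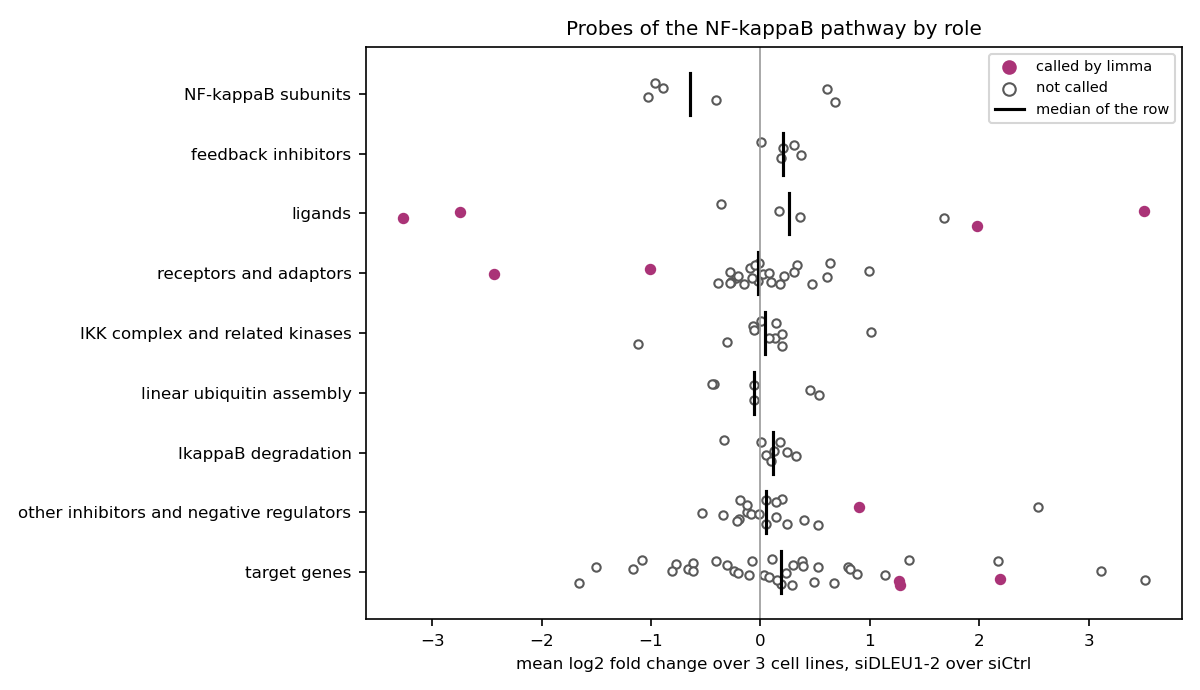
Mean log2 fold change over the 3 lines for every tested probe of the pathway by role, with NF-kappaB subunits and feedback inhibitors in the top rows; filled points were called by limma, open points were not, and black bars are row medians. Called points sit among ligands, receptors and adaptors, other negative regulators and targets, with none among the members, the IKK complex, the linear ubiquitin assembly or the IkappaB degradation machinery.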

How the data were processed

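Total RNA of 6 transfected cultures was measured on SurePrint G3 one-color arrays. The authors deposited Feature Extraction 10.7.3.1 scanner output, in which each spot has a linear intensity after background subtraction and detrending, without normalization between arrays. The series table of the authors holds the same intensity and was an alternative. The methods name GeneSpring GX, without a normalization between arrays or a filter. Positions of probes are those of the files (hg19).

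From these, each deposited processed signal was put on the log2 scale, less the 75th percentile of its array. Control and outlier spots were left out, and spots of a probe were averaged. Kept were 19956 probes in which at least 50% of spots were well above background on at least 1 array of every line. limma 3.58.1 (R 4.3.3; lmFit, eBayes) was fitted to all of them with siRNA and cell line as terms, with Benjamini-Hochberg adjustment and a threshold of 0.05. The cell line pairs the arrays as a replicate block, and deviations correlated within pairs at 0.83, 0.81 and 0.82. All arrays lay on 1 slide. The procedure was tested on simulated data, but the outcome is not given here and no call rests on it.

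Members and lists were chosen with earlier results of these data known. Named are all member probes, DLEU1, and pathway genes called or over 2-fold in 1 direction in all lines. MAP3K14, TANK, CSF3 and CXCL6 were named outside this rule. The siRNA strand was read from the study's oligonucleotide list, and promoters from RefSeq. Positions in exons or untranslated regions were not assigned.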

Additional observations from a re-analysis of the deposited data

Results flagged for a closer look

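RELB, NFKBIZ, NFKBIE and NFKBIA had log2 fold changes of opposite sign in different cell lines. The spread from the lowest to the highest line was 1.44 for RELB (higher in HSC-3, lower in KON and Ca9-22), 0.82 for NFKBIZ (lower in Ca9-22 only, where its siDLEU1-2 array was not well above background), 0.75 for NFKBIE (lower in KON only) and 0.12 for NFKBIA (higher in HSC-3 only). With 1 array per line and siRNA, these differences between lines were not tested.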

How the results depend on the processing

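The count of member probes called, 0, became 3 with normexp, with probes above background on all 6 arrays, and with a trended prior, and 1 with dim values at the floor. It stayed 0 with no replicate block, by the methods' t-test (3 and 4 at an unadjusted p under 0.05), and with each line left out (lowest 0, highest 0). Between lines, the 3 calls for HSC-3 and KON became 5 with normexp, the 5 for HSC-3 and Ca9-22 became 3 with no filter, and the 1 for KON and Ca9-22 became 0 with normexp, no filter or the filter on all 6 arrays, and 2 with a trended prior. The 10 pathway calls became 18 with normexp, 21 with a trended prior, and 0 with no filter, with no replicate block or by the methods' t-test (32, 14 and 11 unadjusted), and lay between 0 and 8 with a line left out, being 0 without HSC-3 and 0 without KON. Over all 19956 probes, the 1697 calls rose as well, to 2308 with normexp, 2446 with a trended prior and 1941 with dim values at the floor. With probes above background on all 6 arrays they were 2065 of 18094. They became 0 without HSC-3 or without KON, 244 without Ca9-22, and 0 with no filter, no replicate block or the methods' t-test. The sign of NFKBIA alone turned among member probes, to -0.0707 with quantile normalization, -0.0642 centered on the median, -0.0177 centered on detected probes, -0.00503 with normexp and -0.0321 without HSC-3. The cause was not tested. Across all alternatives, 149 of 164 values of single member probes kept their direction and side of the threshold. Scalings moved the median of all probes by less than 0.1. With 3 lines, an exact sign-flip test cannot give a two-sided p below 0.25, and dim probes such as NFKBIZ are measured near their floor.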
